A study of Mus musculus with 6 samples.

Results

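The genes described here encode the channels and pumps of beta-cell excitability and calcium handling, in MIN6 cells in which Paupar, a long noncoding RNA, was targeted. The members are 32 gene symbols chosen by name, of 23284 in the count tables: a pair of KATP channel genes, 5 pore and 5 auxiliary subunits of voltage-gated calcium channels, 7 other potassium channels, 3 voltage-gated sodium channels, a pair of TRP channels, 4 calcium release channels and a pair of calcium pumps of the endoplasmic reticulum (ER), and a pair of genes of store-operated calcium entry. All 32 symbols were in the tables, and 27 had enough counts to be tested. MIN6 is an established line of insulin-secreting cells, derived from a mouse insulinoma. The control KD group, 3 libraries, was given a control antisense oligonucleotide (ASO), and the Paupar KD group, 3 libraries, an ASO against Paupar, whose gene neighbours Pax6. The comparison of the groups shows which RNAs differ once Paupar is targeted. The labels give no ASO dose or duration, and no genotype, clone or passage for the cells. Paupar has no row in the tables under that symbol, and its level is not analysed here.

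In a beta cell, ATP made from glucose closes the KATP channel, the membrane depolarises, and voltage-gated calcium channels open and trigger insulin release. Other potassium channels repolarise the membrane, and TRP channels of the TRPM group carry a depolarising current. The ER takes up calcium through SERCA pumps and releases it through ryanodine and IP3 receptors, and STIM proteins open ORAI channels in the plasma membrane when the ER store runs low.

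Library totals were 22463557 to 28693863 counts in control KD and 16973622 to 23434166 in Paupar KD. The biological coefficient of variation was 4.95% among control KD and 18.8% among Paupar KD libraries, and Paupar KD replicate 1 lay farthest from the controls for 57.8% of all 13039 genes tested. All 14 beta cell markers were tested, and their summed level was 42791 to 46874 CPM (counts scaled to a common library total) in control KD and 47569 to 68926 CPM in Paupar KD, the highest value being that of replicate 1. The sum is weighted by the most abundant markers. Singly, 10 of the 14 had a positive and 4 a negative fitted log2 fold change, from -0.55 to 0.86. Of 9 markers of other islet cells 2 were tested, and their summed level was 71.1 to 80.5 CPM in control KD and 45.1 to 130.3 CPM in Paupar KD. Of 14 exocrine, duct, stromal, endothelial and immune markers 3 were tested, their summed level was 4.96 to 5.37 CPM in control KD and 3.18 to 4.16 CPM in Paupar KD, and Cpa1, Prss1, Sox9, Cftr, Dcn, Cdh5 and Ptprc were at 0 counts in every library. The part of these differences in the results on channels was not tested.

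Short promoter sequences of 3 of the 6 members whose groups did not overlap are shown first, as those that held a searched motif before the start of the gene. Promoters are RefSeq windows of build GRCm38.p6, 250 bases before to 50 after a start, and 22 of the 32 members matched, with 31 promoters. The unmatched members were not searched, so a member with no motif given here need not lack one. Capitals mark the motif, and each window has 30 bases.
Kcnh6, chr11:106007958-106007987, + strand: ttatTTCAGCACCacgacgcGGACAGctcc
Cacnb2, upstream start, chr2:14604217-14604246, + strand: cagcCCGCCCagcagtcccagcctccgccg
Cacnb2, downstream start, chr2:14823971-14824000, + strand: cagcTGACGtaattcaaagtagaaaaagcc
Stim1, chr7:102267694-102267723, + strand: tctgGGGCGGgcccgggcttcgctgggggc

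The Kcnh6 window holds TTCAGCACC, the left arm of the RE1 element bound by the repressor REST, 186 bases before the start, and GGACAG, the core of the right arm, 7 bases further on. The arms lie closer together in the canonical element. TTCAGCACC on either strand was present in 0.371% of 32851 promoters and in 1 of the 31 member promoters. The GC box GGGCGG, which reads CCGCCC on the opposite strand, in the Cacnb2 and Stim1 windows, was present in 17 of the 31 member promoters (54.8%), against 35.7% of all promoters. Not every match is printed: before the start there were 3 GC boxes for Kcnh6, 6 for Stim1 and 1 for Cacnb2. TGACG, only a part of the cAMP response element, was present in 6 member promoters (19.4%) and in 20.8% of all promoters. Stim1 held it 223 bases before the start, in a window not printed. The E-box CACGTG and the TATA box TATAAA were each in 1 member promoter (3.23%), those of Itpr3 and Cacna1d, against 7.15% and 13.6% of all. All motifs were searched on both strands, none contains the letters of another, and a match describes the sequence only.

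Per kilobase of annotated exons, the ER pumps and the KATP channel gene Abcc8 led the members in control KD and the ryanodine receptor came last of those tested. Atp2a2, which encodes the SERCA2 pump, was the highest at 1069 ± 42.1 CPM per kb, followed by the other SERCA gene Atp2a3 at 223 ± 6.14 and the sulfonylurea receptor gene Abcc8 at 143.5 ± 8.74 CPM per kb (SD, n = 3 for these and all later means). Cacnb3, a calcium channel beta subunit, stood at 40.1 ± 1.25, Kcnj11, the pore of the KATP channel, at 37.3 ± 0.64, and the ERG potassium channel gene Kcnh2 at 25.4 ± 1.93 CPM per kb. From Atp2a2 down to Kcnh2 the 3 control values of each gene lay above those of the next. Kcnh2, Trpm5 and Stim1, at 25.4, 24.7 and 23.8 CPM per kb, followed without such a gap. Among voltage-gated calcium channel pores the order was Cacna1c (8.25 ± 0.32), Cacna1d (4.05 ± 0.24) and Cacna1h (2.30 ± 0.23 CPM per kb), with no overlap between them. Cacna1a was at 0.11 ± 0.01 CPM per kb. The IP3 receptor genes Itpr3 (2.83 ± 0.32) and Itpr1 (2.69 ± 0.24 CPM per kb) overlapped, and Itpr2 (0.11 ± 0.02) and the ryanodine receptor gene Ryr2 (0.03 ± 0.01 CPM per kb) were near the bottom of the order.

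**Figure D1:**
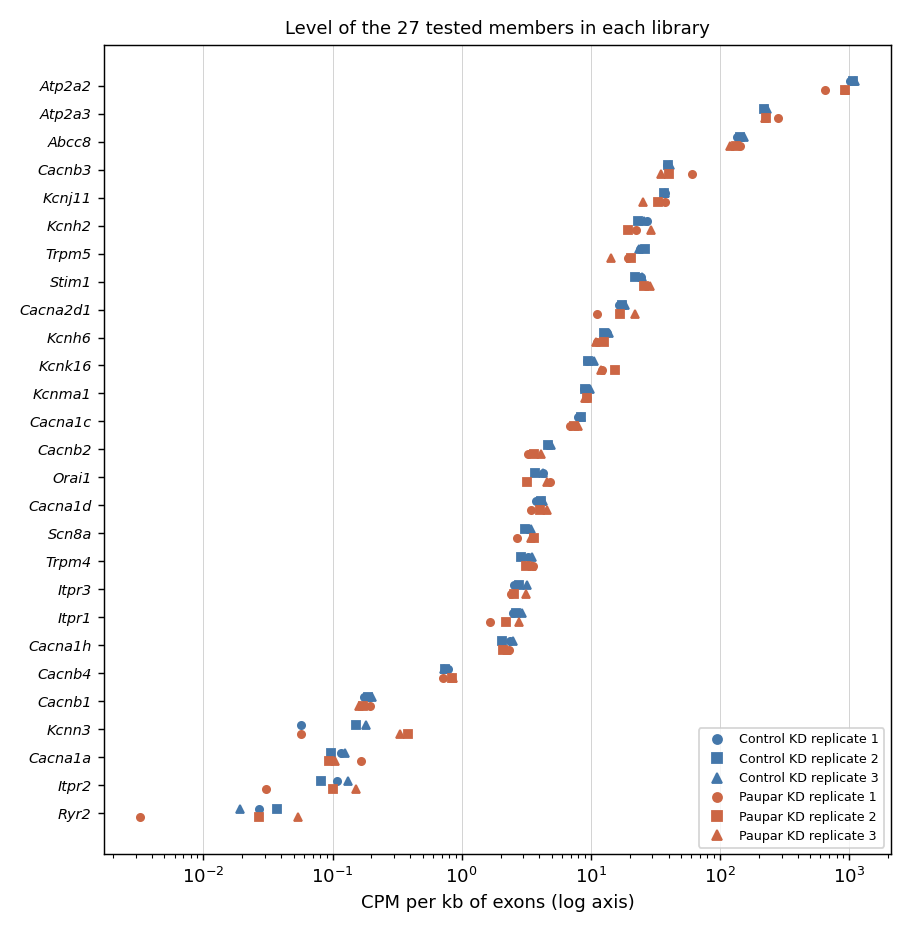
Level of the 27 tested members as CPM per kilobase of exons (log axis), 1 point per library, control KD in blue and Paupar KD in orange, ordered by the control mean. Atp2a2 is at the top at 1069 CPM per kb in control KD, and Ryr2 at the bottom has the widest spread, with Paupar KD replicate 1 far to the left.

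The 5 members that could not be tested were the sodium channel genes Scn3a and Scn9a, the potassium channel genes Kcnq1 and Kcnk3, and the calcium channel pore gene Cacna1e. Scn3a, Scn9a and Kcnq1 were at 0 counts in all 6 libraries, which allows up to 3 counts, or 0.105 to 0.177 CPM depending on the library. This limit covers counting error only. Kcnk3, a leak channel gene, had 0, 1 and 2 counts in control KD replicates 1 to 3 and 0 in each Paupar KD library. Cacna1e, the R-type calcium channel pore, had 3 to 4 counts in control KD and 1 to 6 in Paupar KD. Of 10 sodium channel pore genes in the tables, Scn8a was the only one tested, with 504 to 1089 counts, and the other 9 had at most 7 counts in any library. In the GENCODE M1 annotation, exons of Scn3a and Kcnq1 share no bases with another gene, and those of Scn9a share 1.68% with an antisense gene.

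Of the 27 tested members, 0 were higher and 0 lower in Paupar KD by edgeR's quasi-likelihood test at an adjusted p under 0.05. Over all 13039 genes, 0.0383% were called higher and 0.00767% lower. DESeq2 gave an adjusted p to 12785 genes, not to Ryr2, and called 2.15% of those genes higher and 1.82% lower. It called 0 members, as did limma-voom. Limma-voom with sample quality weights, added after the data were seen, called Kcnk16 higher and Cacnb2 and Trpm5 lower, along with 5.71% and 7.29% of all genes. EdgeR gave 1 higher member at an unadjusted p under 0.05, Kcnk16, and 3 lower ones, Cacnb2, Trpm5 and Atp2a2, where 9.63% and 8.11% of all genes were higher and lower. Groups did not overlap for 6 members, 2 higher and 4 lower, which is 22.2% of those tested against 27.1% of all genes (13.7% higher and 13.3% lower). The median log2 fold change was -0.06 over the members and 0.01 over all genes tested, with 10 members positive and 17 negative. The median size of a log2 fold change was 0.12 in members and 0.16 in all genes. The share of members that stood apart was thus near or under that of all genes. In bulk RNA, fewer cells of a kind and less RNA per cell cannot be told apart.

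The size of the spread between Paupar KD libraries was near that of genes in general, whereas the direction of single libraries differed. The SD of log2 CPM was larger in Paupar KD than in control KD for 23 of 27 members (85.2%) and for 84.6% of all genes. Its median was 0.09 in control KD and 0.21 in Paupar KD for the members, against 0.08 and 0.21 for all genes. Paupar KD replicate 1 was below the control range for 15 members and above it for 7, replicate 2 below for 12 and above for 5, and replicate 3 below for 8 and above for 10. Of all 13039 genes tested, replicate 1 was below the control range for 5554 and above it for 5458. The counts were 4835 and 4771 for replicate 2, and 4539 and 4868 for replicate 3. Replicate 1 was the library farthest from the control mean for 14 of the 27 members (51.9%), replicate 2 for 5 (18.5%) and replicate 3 for 8 (29.6%). Over all genes tested these shares were 57.8%, 19.6% and 22.6%.

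**Figure D2:**
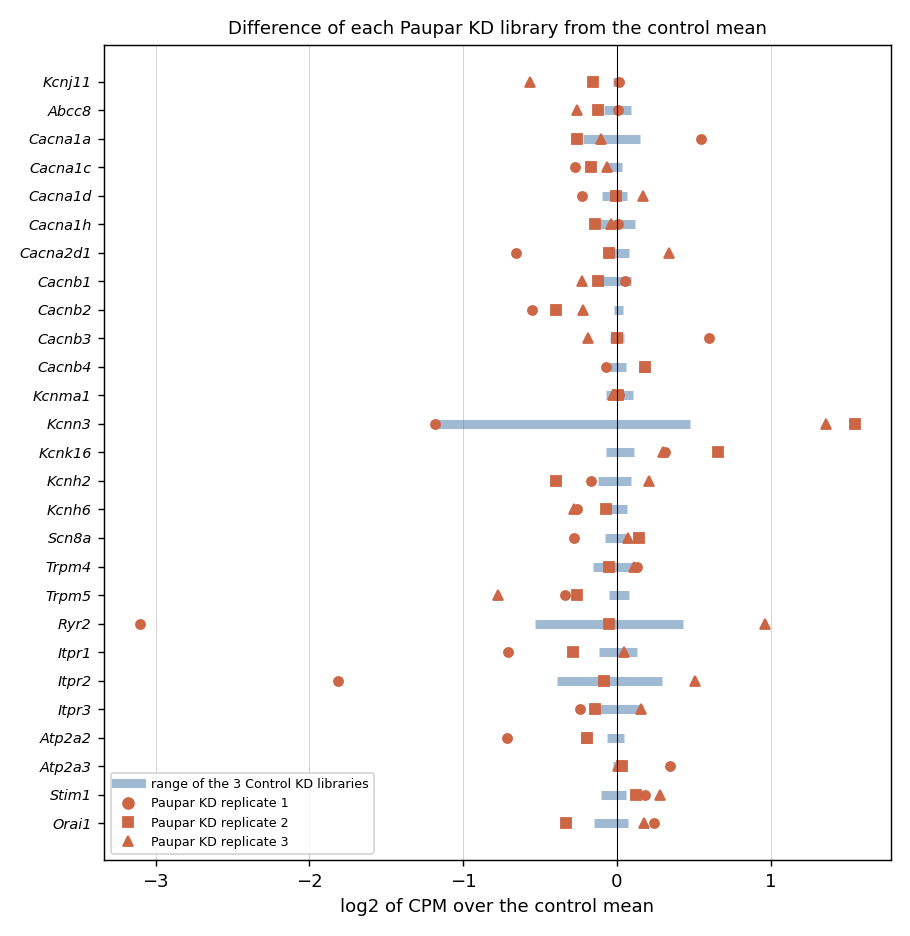
Log2 of the CPM of each Paupar KD library over the control mean for the 27 tested members, with the range of the 3 control KD libraries as a blue bar. Most points lie within 1 log2 unit of the control mean. Replicates 1 and 3 fall on opposite sides of it for many members, among them Cacna2d1, Cacnb3, Kcnn3, Itpr2 and Ryr2.

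The KATP channel is an assembly of the pore Kcnj11 and the regulatory subunit Abcc8, whose genes lie side by side on chromosome 7 (mm9, 53352533 to 53355607 and 53359893 to 53435403). Kcnj11 was at 116, 113 and 115 CPM in control KD and at 116, 103 and 77.6 CPM in Paupar KD replicates 1 to 3. Its fitted log2 fold change was -0.22 ± 0.14 SE (edgeR adjusted p = 0.433), and only Paupar KD replicates 2 and 3 were below the controls. It was -0.07 without Paupar KD replicate 3 and -0.35 without replicate 1. Abcc8 was at 672, 703 and 757 CPM in control KD and at 714, 654 and 593 CPM in Paupar KD, with a log2 fold change of -0.12 ± 0.10 SE (edgeR adjusted p = 0.538). The same 2 libraries were below the controls, and the value ranged from -0.19 without Paupar KD replicate 1 to -0.07 without control replicate 3 and -0.06 without Paupar KD replicate 3. Per kilobase, Abcc8 exceeded Kcnj11 by 3.59 to 4.09 times in control KD and by 3.83 to 4.75 times in Paupar KD.

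Pore subunits of voltage-gated calcium channels carry the calcium current that triggers exocytosis, and 0 of the 4 tested were called or without overlap. Cacna1c, an L-type pore, was at 69.5, 74.5 and 74.2 CPM in control KD and at 60.3, 64.9 and 69.6 CPM in Paupar KD (log2 fold change -0.16 ± 0.09 SE, edgeR adjusted p = 0.357). Its groups met at their edges, the highest Paupar KD value and the lowest control value being almost equal. Cacna1d, the other L-type pore, was at 35.4 to 39.6 CPM in control KD and 32.4 to 42.7 CPM in Paupar KD, and the T-type pore Cacna1h at 19.97 to 24.4 and 20.3 to 22.6 CPM. For Cacna1d, Paupar KD replicate 1 was below the controls, replicate 2 among them and replicate 3 above them, and for Cacna1h all 3 lay within the control range. Cacna1a, the P/Q-type pore, had 26 to 41 counts in control KD and 22 to 32 in Paupar KD.

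Auxiliary subunits bring the pore to the membrane and set its gating. Cacnb2, a beta subunit gene on chromosome 2 (mm9, 14525933 to 14909535) had the smallest p of the members. It was at 43.3, 43.4 and 45.1 CPM in control KD and at 30.02, 33.4 and 37.7 CPM in Paupar KD replicates 1 to 3. Every Paupar KD library lay below every control, and the Paupar KD mean was 0.77 of the control mean. The log2 fold change was -0.38 ± 0.10 SE, which missed the threshold (edgeR adjusted p = 0.161; DESeq2 adjusted p = 0.0531). Without Paupar KD replicate 3 it was called lower, at -0.47 (edgeR adjusted p = 0.0246), in a fit that called 5.67% of all genes lower. Antisense genes share 5.30% of its exon bases.

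Cacnb3, the most abundant beta subunit gene, was at 121, 125 and 129 CPM in control KD and at 190, 125 and 110 CPM in Paupar KD replicates 1 to 3. Replicate 1 stood alone above the controls and replicate 3 below them, and the fitted log2 fold change was 0.18 ± 0.19 SE (edgeR adjusted p = 0.635), which became 0.33 without replicate 3 and -0.094 without replicate 1. Cacna2d1, the alpha2delta subunit that raises surface expression of the pore, was at 139, 147 and 155 CPM in control KD and at 93.4, 142 and 186 CPM in Paupar KD. Its replicates 1 and 3 lay on opposite sides of the control range (edgeR adjusted p = 0.895). Cacnb4 was at 6.49 to 6.95 CPM in control KD and 6.37 to 7.59 CPM in Paupar KD, and Cacnb1 had 15 to 26 counts in any library.

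Among other potassium channels, Kcnk16 encodes a TALK-type leak channel that is enriched in islets. It was at 8.20, 8.35 and 9.32 CPM in control KD and at 10.7, 13.6 and 10.6 CPM in Paupar KD replicates 1 to 3. Every Paupar KD library lay above every control, the mean being 1.35 times the control mean. The log2 fold change of 0.43 ± 0.14 SE did not pass (edgeR adjusted p = 0.214).

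Kcnh6 and Kcnh2 encode ERG channels, which repolarise the membrane. Kcnh6, on chromosome 11 (mm9, 105869438 to 105895863), was at 48.6, 46.8 and 51.0 CPM in control KD and at 40.8, 46.5 and 40.3 CPM in Paupar KD. The groups were apart by a narrow margin between control replicate 2 and Paupar KD replicate 2 (log2 fold change -0.20 ± 0.09 SE, edgeR adjusted p = 0.306; -0.11 by limma-voom with quality weights). Kcnh2 was at 113 to 131 CPM in control KD and 93.3 to 142 CPM in Paupar KD, with replicates 1 and 2 below the controls and replicate 3 above them. Kcnma1, the pore of the large-conductance calcium-activated BK channel, was at 41.8 to 47.0 CPM in control KD and 43.1 to 44.2 CPM in Paupar KD, all within the control range. Kcnn3, a small-conductance calcium-activated channel, had 4, 11 and 16 counts in control KD and 3, 24 and 24 in Paupar KD, with replicate 1 level in CPM with the lowest control and the other libraries above the controls (edgeR adjusted p = 0.418).

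Scn8a, the sodium channel tested, was at 36.1, 34.2 and 38.0 CPM in control KD and at 29.7, 40.01 and 38.0 CPM in Paupar KD, with overlap (edgeR adjusted p = 0.983). The TRP channel genes Trpm5 and Trpm4 both encode calcium-activated cation channels of the plasma membrane. Trpm5, on chromosome 7 (mm9, 150255058 to 150280547), was at 154, 167 and 152 CPM in control KD and at 125, 132 and 92.3 CPM in Paupar KD replicates 1 to 3. All Paupar KD values lay below the controls, at a mean of 0.74 of the control mean, and the log2 fold change was -0.44 ± 0.14 SE (edgeR adjusted p = 0.196). Trpm4 was at 13.8 to 16.8 CPM in control KD and 14.9 to 16.9 CPM in Paupar KD.

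**Figure D3:**
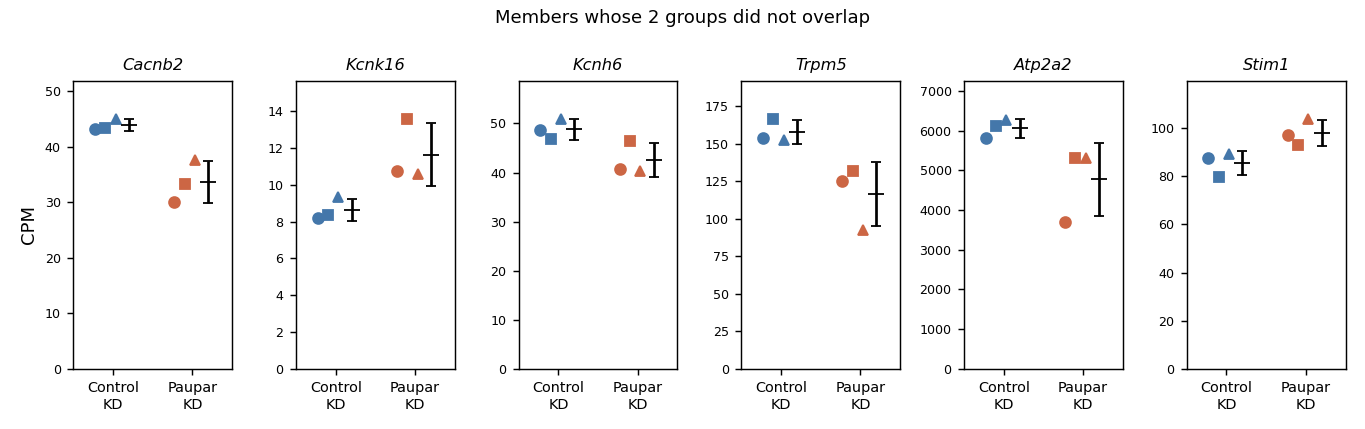
CPM per library for the 6 members whose groups did not overlap, with the axis from 0, circles, squares and triangles for replicates 1, 2 and 3, and mean ± SD beside the points. Kcnk16 and Stim1 were higher in every Paupar KD library and Cacnb2, Kcnh6, Trpm5 and Atp2a2 lower, none past edgeR's threshold.

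The ER calcium pump gene Atp2a2, on chromosome 5 (mm9, 122903531 to 122952183), took 0.583 to 0.627% of all counts in control KD. It was at 5804, 6108 and 6276 CPM in control KD and at 3696, 5297 and 5311 CPM in Paupar KD replicates 1 to 3. All Paupar KD values lay below the controls, replicate 1 by far the most, and the mean was 0.79 of the control mean (log2 fold change -0.35 ± 0.15 SE, edgeR adjusted p = 0.274). The difference was -0.20 on the log2 scale when Paupar KD replicate 1 was left out. Atp2a3, the SERCA3 gene of endocrine and blood cells, was at 1160, 1155 and 1213 CPM in control KD and at 1496, 1204 and 1181 CPM in the Paupar KD libraries (edgeR adjusted p = 0.527). Only Paupar KD replicate 1 lay above the controls.

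Of the calcium release channels, Itpr1 was at 25.9, 27.6 and 30.8 CPM in control KD and at 17.2, 23.0 and 29.1 CPM in Paupar KD (log2 fold change -0.28 ± 0.18 SE, edgeR adjusted p = 0.434). Paupar KD replicates 1 and 2 were below the controls and replicate 3 among them. The difference was -0.11 without Paupar KD replicate 1 and -0.48 without replicate 3. Itpr3 was at 22.9 to 28.6 CPM in control KD and 21.5 to 28.3 CPM in Paupar KD. Itpr2 had 26 to 51 counts in control KD and 7, 28 and 48 in Paupar KD, and Ryr2 10 to 16 counts in control KD and 1, 10 and 23 in Paupar KD. For both, replicate 1 was the low library.

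Stim1, the ER calcium sensor, was at 87.6, 79.7 and 89.2 CPM in control KD and at 97.1, 93.0 and 104 CPM in Paupar KD. Every Paupar KD value was above the controls, and the log2 fold change of 0.20 ± 0.09 SE did not pass (edgeR adjusted p = 0.288). Orai1, the plasma membrane channel it opens, was at 8.39 to 9.75 CPM in control KD and 7.39 to 10.97 CPM in Paupar KD, on both sides of the controls.

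The make-up of small families was compared as the share of each gene in its family's CPM per kilobase. With 3 libraries against 3 the exact two-sided permutation test cannot go below p = 0.10, and over 13 shares the smallest adjusted p was 0.217, so 0 could pass. Atp2a2 made up 82.3, 83.1 and 82.8% of the pair Atp2a2 and Atp2a3 in control KD and 69.7, 80.4 and 80.7% in Paupar KD replicates 1 to 3 (exact permutation p = 0.10). Per kilobase Atp2a2 exceeded Atp2a3 by 4.66 to 4.92 times in control KD and by 2.30, 4.09 and 4.18 times in Paupar KD. Cacnb2 made up 10.5, 10.3 and 10.4% of the beta subunits in control KD and 5.01, 8.07 and 10.1% in Paupar KD (exact permutation p = 0.10). Cacna1c made up 55.1 to 57.4% of the pore subunits among the members in control KD and 53.2 to 54.2% in Paupar KD (exact permutation p = 0.10).

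Itpr1 made up 47.1 to 48.4% of the IP3 receptors in control KD and 40.5, 45.4 and 45.8% in Paupar KD, and Itpr3 49.5 to 50.8% and 58.8, 52.5 and 51.7% (exact permutation p = 0.10 for each). Trpm4 made up 10.01 to 12.9% of the TRPM pair in control KD and 15.4, 13.2 and 19.5% in Paupar KD (exact permutation p = 0.10). These 6 of the 13 shares did not overlap between groups. How often shares do so among genes in general was not computed. Atp2a2 and Cacnb2 are also among the members without overlap, as is Trpm5, the other gene of the TRPM pair, so these shares are not separate results. Paupar KD minus control KD was -5.82 percentage points for Atp2a2, -2.67 for Cacnb2, -4.03 for Itpr1 and 4.16 for Itpr3, and without Paupar KD replicate 1 it was -2.21, -1.30, -2.34 and 1.95. For Trpm4 it was 4.39 points, and 2.63 without Paupar KD replicate 3. For Cacnb2 it was -5.77 points when counts were not scaled by length. The other 7, of Cacna1d, Cacna1h, Cacnb3, Cacnb4, Itpr2, Kcnj11 and Kcnh2, overlapped. Shares of one family are not independent of each other.

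**Figure D4:**
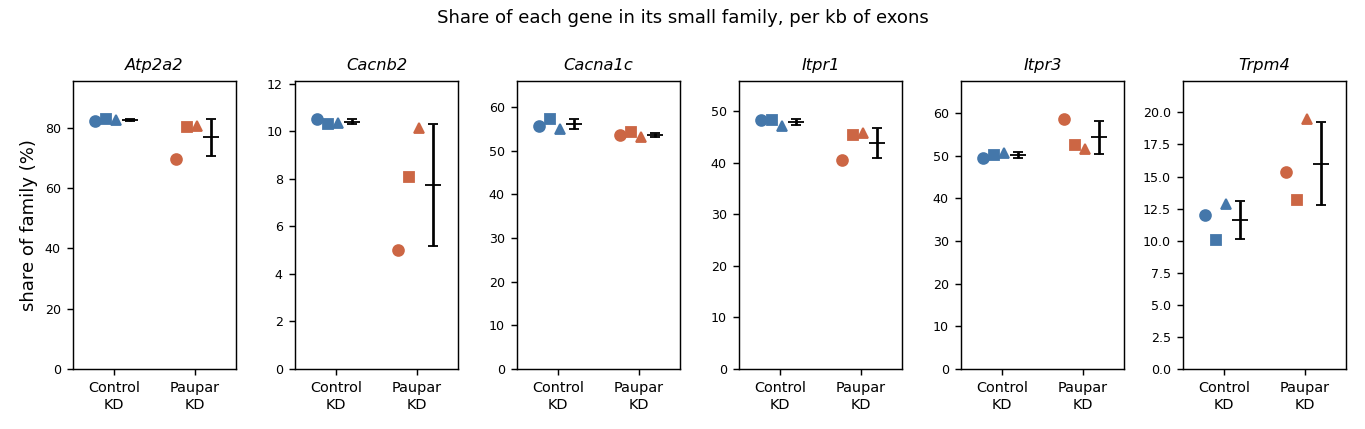
Share of each gene in its family per kilobase of exons, in percent, for the 6 shares without overlap between groups, with circles, squares and triangles for replicates 1, 2 and 3 and mean ± SD beside the points. Paupar KD replicate 1 lies farthest from the controls for Atp2a2, Cacnb2, Itpr1 and Itpr3, and replicate 3 for Trpm4.

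Genes of the same pathways outside the members were read from 2 lists. Of 85 other plasma membrane channel genes, 84 were in the tables and 51 tested. EdgeR called 0 in either direction. By the same test at an unadjusted p under 0.05, 4 of the 51 were higher and 9 of the 51 lower, where 9.63% and 8.11% of all genes were. Groups did not overlap for 3 higher and 10 lower genes, 25.5% of those tested against 27.1% of all genes (13.7% higher and 13.3% lower). The median log2 fold change was -0.11 against 0.01. By both counts the share of lower genes was above that of all genes and the share of higher genes below it. The list as a set was not tested. Kcnc4, Kcnc1 and Kcnt1 were among the 4 with the smallest p, all with negative fold changes. Kcnc4 and Kcnc1 encode Kv3 channels, fast voltage-gated channels that end action potentials.

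Kcnc4 was at 21.9, 20.1 and 19.4 CPM in control KD and at 12.9, 10.9 and 13.8 CPM in Paupar KD replicates 1 to 3, a mean of 0.61 of the control mean (log2 fold change -0.71 ± 0.12 SE, edgeR adjusted p = 0.0840). Kcnc1 was at 17.3, 17.3 and 19.1 CPM in control KD and at 11.7, 10.8 and 14.8 CPM in Paupar KD (log2 fold change -0.52 ± 0.14 SE, edgeR adjusted p = 0.161). In both genes each Paupar KD library lay below each control. Kcnt1, a sodium-activated potassium channel, was at 3.49 to 4.30 CPM in control KD and 1.71 to 2.69 CPM in the Paupar KD libraries (edgeR adjusted p = 0.149).

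DESeq2 called Kcnc4, Kcnc1 and Kcnt1 lower, with adjusted p of 3.20e-04, 0.0419 and 0.0392, where it called 1.82% of 12785 genes lower. EdgeR called Kcnc4 lower without Paupar KD replicate 1 (adjusted p = 0.0367), in a fit that called 0.972% of genes lower. It called Kcnc4 and Kcnc1 lower without replicate 3 (adjusted p = 0.0132 and 0.0167), in a fit that called 5.67% of genes lower. Kcnc4, Kcnc1 and Kcnt1 were named for their small edgeR p in the same counts, so these fits are not independent support. Kcnc1 lies on chromosome 7 (mm9, 53651867 to 53693745) and Kcnc4 on chromosome 3 (107241221 to 107261816).

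**Figure D5:**
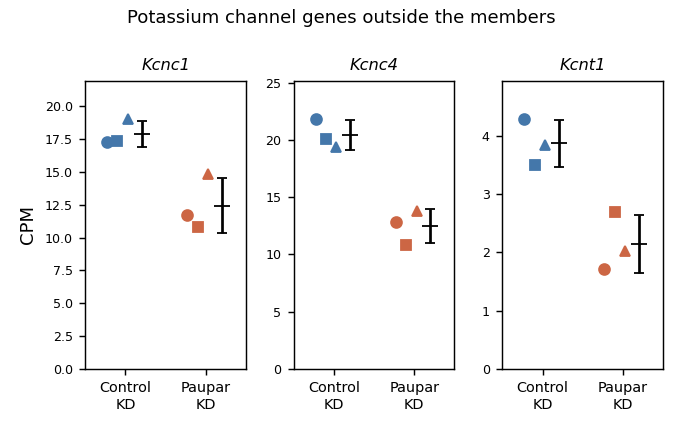
CPM per library for Kcnc1, Kcnc4 and Kcnt1, with the axis from 0, circles, squares and triangles for replicates 1, 2 and 3, and mean ± SD beside the points. In all 3 genes the Paupar KD libraries lie below the 3 controls, at means of 0.55 to 0.70 of the control mean.

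Of 70 symbols of other calcium handling genes, some of them older and newer names of the same gene, 64 were in the tables and 54 tested. EdgeR called 0, with 4 higher and 3 lower at an unadjusted p under 0.05, against the same 9.63% and 8.11% of all genes. Groups did not overlap for 5 higher and 5 lower genes, 18.5% of those tested against 27.1% of all genes (13.7% higher and 13.3% lower), and the median log2 fold change was 0.01. Rcn2, Stim2 and Vdac1 were among the 4 with the smallest p. Stim2, the sister ER calcium sensor of STIM1, was at 82.1, 79.0 and 81.2 CPM in control KD and at 42.1, 50.6 and 74.7 CPM in Paupar KD (log2 fold change -0.53 ± 0.19 SE, edgeR adjusted p = 0.231). Its values lay below the controls, whereas those of Stim1 lay above them. Rcn2, an ER calcium-binding protein, was at 97.5 to 107 CPM in control KD and 117 to 127 CPM in Paupar KD (edgeR adjusted p = 0.221). Vdac1, a channel of the outer mitochondrial membrane, was at 565 to 663 and 450 to 559 CPM (edgeR adjusted p = 0.235).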

How the data were processed

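The authors deposited 1 table of raw read counts per library for 23284 gene symbols. The submitters' processing notes name build mm9 and the tools HISAT2, HTSeq, CASAVA 1.8.2 and DESeq2; what each did, which annotation was used and whether strand was are not given in the sources used. Without strand, reads of antisense partners cannot be told apart. Libraries were made with a TruSeq kit from RNeasy total RNA, per the labels' protocols.

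Counts were fitted with edgeR 4.0.16 in R 4.3.3: filterByExpr (minimum count 10, 13039 genes left), TMM factors, robust quasi-likelihood test of Paupar KD against control KD, Benjamini-Hochberg adjustment at 0.05. SE is the log2 fold change divided by the square root of F. CPM uses TMM-scaled totals, and levels per kilobase use the union of GENCODE M1 exons (NCBIM37, that is mm9), whichever exons the cells use. A family share needed a mean of at least 1%. The fit was tested on simulated data with the same spread in both groups, so that test does not cover the unequal spread of the real groups. No pair of replicates agreed within sampling noise (chi-square per gene 3.46 to 8.39 between controls, 1 if only sampling differed). No label says that replicates came from separate cultures; the spread that p-values measure may thus be technical.

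Members and lists were chosen with earlier results of these data known. Named genes are all 32 members, and from each list of other genes those past the threshold or, where none passed, up to 4 with the smallest p. Some genes that these lists or rules name are not reported here. Alternatives were other scalings and filters, DESeq2 1.42.0, limma-voom (limma 3.58.1), no robust estimation, a replicate block, an adjusted p under 0.10 and each library left out.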

Additional observations from a re-analysis of the deposited data

How the results depend on the processing

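No member was called higher or lower by edgeR with other scaling factors, other low-count filters, no robust estimation or an adjusted p under 0.10, nor by DESeq2 or limma-voom. Limma-voom with quality weights, chosen after seeing the data, called 1 higher (Kcnk16) and 2 lower (Cacnb2 and Trpm5), against 5.71% and 7.29% of all genes. Leaving out 1 library gave 0 higher and 0 to 1 lower members, the 1 being Cacnb2 without Paupar KD replicate 3. Members without overlap ranged from 2 to 4 higher and from 4 to 8 lower when 1 library was left out, with 4 and 8 without Paupar KD replicate 1 (18.7% and 20.4% of all genes), 4 higher without control KD replicate 3 (16.8%), and 7 lower without control KD replicate 2 (16.3%) or Paupar KD replicate 3 (25.3%); fewer libraries overlap less often. With a replicate block edgeR called 0 members higher and 0 lower, and 1 of all genes higher. The numbers were not taken to pair the libraries: deviations of same-numbered libraries correlated at 0.11, 0.03 and 0.03, and Paupar KD replicate 2 correlated best with control replicate 3.

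The log2 fold changes of 14 tested members kept their direction in every alternative and those of 13 turned in at least 1; the cause was not tested. Ranges with each library left out in turn were -0.19 to 0.22 for Cacna1a, -0.11 to 0.081 for Cacna1d, -0.14 to 0.0088 for Cacna1h, -0.32 to 0.15 for Cacna2d1, -0.094 to 0.33 for Cacnb3, -0.66 to 0.23 for Itpr2, -0.19 to 0.029 for Itpr3, -0.28 to 0.025 for Kcnh2, -0.034 to 0.053 for Kcnma1, -0.058 to 0.20 for Orai1, -0.76 to 0.58 for Ryr2, -0.10 to 0.10 for Scn8a and -0.013 to 0.13 for Trpm4. Upper-quartile factors turned Cacna1d (0.018), Kcnma1 (0.028) and Scn8a (0.019), library totals turned Kcnma1 (4.66e-04) and the replicate block Kcnma1 (3.67e-04), and limma-voom turned Ryr2 (-0.39). Quality weights turned Cacna1a (-0.12), Cacna1d (0.0079), Kcnma1 (0.016), Orai1 (-0.17), Ryr2 (-0.11) and Scn8a (0.11).

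Of the 13 family shares 9 kept their direction; leaving out 1 library gave differences in percentage points of -0.39 to 1.097 for Cacna1h, -0.14 to 0.36 for Cacnb4, -0.49 to 0.39 for Itpr2 and -1.87 to 4.32 for Kcnh2. Cacna1a, Cacnb1, Kcnn3, Itpr2 and Ryr2 had at most 51 counts in every library; what part depth has in their not being called was not tested.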

Other observations

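Kcnmb2, Scn3b and Kcnip1, channel subunit genes outside the members, were noticed after their values were seen. Kcnmb2, an accessory subunit of the BK channel, was at 31.1, 32.9 and 27.6 CPM in control KD and at 11.1, 11.3 and 25.1 CPM in Paupar KD replicates 1 to 3 (edgeR adjusted p = 0.197), while the pore gene Kcnma1 stayed within its control range in every Paupar KD library. Scn3b, an accessory subunit of sodium channels, was at 18.2, 21.0 and 19.1 CPM in control KD and at 9.14, 8.61 and 19.9 CPM in the Paupar KD libraries (edgeR adjusted p = 0.311). Kcnip1, an accessory subunit of A-type potassium channels, was at 107, 113 and 109 CPM in control KD and at 52.2, 60.5 and 107 CPM in the Paupar KD libraries (edgeR adjusted p = 0.267). In all 3 genes Paupar KD replicates 1 and 2 were far below the controls and replicate 3 near them, and none was called.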
